A study of Homo sapiens with 33 samples.

Results

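The 5 SCC1 libraries of cetuximab days 1 to 5 were followed as a time course, with gene expression set against the day as a number. SCC1 (UM-SCC-1) is an established human cell line of head and neck squamous cell carcinoma (HNSCC), and the 5 libraries were taken by cell line, treatment and day from the 33 bulk RNA-seq libraries of 3 HNSCC lines. The treated cells (CTX) received 100 nM cetuximab, and the controls received PBS, the untreated control. Treatment began 24 hours after seeding, the medium with antibody or PBS was renewed daily, and the libraries were made from poly(A) RNA. There was 1 library for each treatment and day, so the 5 SCC1 PBS libraries of days 1 to 5 gave the slope of untreated cells beside the treated slope. No label names separate cultures for the days.

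Cetuximab is an antibody that occupies the ligand-binding part of the epidermal growth factor receptor (EGFR) and keeps its growth factor ligands from activating it. In squamous epithelium, EGFR signalling through the RAS-ERK cascade drives division, migration and cytokine release, and its loss is known to favour the differentiation programme of upper-layer keratinocytes. Interferon-stimulated genes, another group followed below, are switched on when interferon receptors activate transcription factors, IRF9 among them, that bind a short element in their promoters.

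Total counts ranged from 37139957 to 41058944 in the CTX libraries and from 36336811 to 47224888 in the PBS libraries. All 8 squamous markers examined (KRT5, KRT14, KRT6A, KRT17, TP63, SFN, CDH1 and EPCAM) were expressed, with a summed level of 7290 to 12400 CPM (counts scaled to library size) in the CTX libraries and 1990 to 3380 CPM in the PBS libraries. Some markers of other cell types were expressed and others were near 0. The summed level of 6 leukocyte markers was 8.89 to 17.9 CPM with cetuximab and 20.1 to 56.5 CPM with PBS, most of it from CD68, a lysosomal protein of macrophages, at 6.74 to 10.2 and 18.6 to 50.6 CPM, and CD14 reached 7.67 CPM with cetuximab. The leukocyte genes PTPRC, CD3E and LYZ reached at most 0.0802, 0.0534 and 0 CPM with cetuximab, and the fibroblast receptors PDGFRA and PDGFRB at most 0.193 and 0.413 CPM, while the type I collagen genes COL1A1 and COL1A2 reached 95 and 59.4 CPM and the endothelial receptor KDR 18.5 CPM. The part of other cell types in the results was not tested. The 5 CTX libraries shared a flow cell, with days 1 to 3 under lane code 1 and days 4 and 5 under lane code 2, and the PBS libraries of days 1 to 4 were on another flow cell.

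The slope of each gene was the change in log2 CPM per day in 1 fit over the 10 libraries, with a line for each treatment, tested by edgeR's quasi-likelihood method. P-values were adjusted over all genes by Benjamini-Hochberg. A gene rose or fell where its adjusted p was under 0.05. Days stood in for replicates, so each p-value sets a slope against the scatter of these libraries about straight lines. It does not measure the spread between cultures. The scatter was estimated over both treatments together, so the p-value of a CTX slope also depends on the PBS libraries. In bulk RNA, fewer cells of a kind and less RNA per cell cannot be told apart.

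With cetuximab, 802 of 17984 genes tested (4.46%) had a slope that passed the test, of which 555 (3.09%) rose and 247 (1.37%) fell. With PBS, 440 genes (2.45%) passed, 293 rising (1.63%) and 147 falling (0.817%). These shares over all genes tested are the background for the list counts given below. The 555 rising genes had a median slope of 0.22 per day with cetuximab and 0.06 with PBS, and the 247 falling genes -0.16 and -0.05. Their change was spread over the whole course: the median step of the rising genes was 0.23 from day 1 to 2, 0.20 from day 2 to 3, 0.17 from day 3 to 4 and 0.24 from day 4 to 5. Of the 555, 402 rose at each of the 4 steps, and of the 247, 141 fell at each, whereas 4.98% and 3.4% of all genes tested did so. These genes were selected by their slope, so these counts describe them and do not test them.

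The split and the size of these counts depended on the libraries and on the scaling. With library totals in place of TMM factors, 458 genes rose and 358 fell, and the median slope of all genes shifted by -0.01. The count of 802 fell to 88 without the CTX library of day 1, 385 without day 2, 399 without day 4 and 69 without day 5, and rose to 1414 and 1412 when the PBS library of day 1 or 5 was left out. When lane code was a term in the fit, 2 genes passed. The fitted slope changed sign for 3 of the 94 genes examined by name (CXCL8, IL6 and TFAP2A, none of them called). Most of the 94 were named for a called slope in these libraries, so the kept signs follow in large part from the selection. The lane term moved the size of some slopes and left others near their value. The slopes of LGALS3BP and HLA-E were 0.22 and 0.21 with the lane term and 0.22 and 0.20 without it. Those of SERPINE2 and STC2 shrank to -0.03 and -0.04 from -0.37 and -0.15, and that of FAM167A grew to -0.48 from -0.28. Within the lanes, 551 of the 555 rising genes had a positive slope over days 1 to 3 and 530 a higher level on day 5 than on day 4, and of the 247 falling genes 245 and 219 moved downward. The genes were called from the slope over these same libraries, so these directions follow in large part from the selection and are no test of the lane.

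A slope that differed between CTX and PBS was found for 111 genes (0.617%), 79 with a higher slope under cetuximab (0.439%) and 32 with a lower one (0.178%). In 70 of the 111 the fitted slope was positive with cetuximab and negative with PBS, and in 29 it was the reverse. Of the 111, 72 had a called slope with cetuximab alone, 21 with PBS alone, 12 with both and 6 with neither. With day as a block, 85 genes passed, 45 with a higher and 40 with a lower slope under cetuximab. The 111 fell to 19, 51, 64, 37 and 4 without the CTX library of day 1, 2, 3, 4 and 5, fell to 56 and 46 without the PBS library of day 2 and 4, and were 376 and 297 without that of day 1 and 5. On day 3, the middle of the course, the fitted level differed between treatments for 9105 genes (50.6%), 4669 higher (26%) and 4436 lower (24.7%) with cetuximab. Among the 555 rising genes, 454 were higher than PBS on day 3 and 28 lower. Of the 247 falling genes, 184 were lower and 17 higher. The treated libraries and all PBS libraries but that of day 5 were on different flow cells, so flow cell and treatment cannot be told apart in the day 3 comparison. The PBS flow cell changed between days 4 and 5. In the PBS slopes and the slope differences, that change cannot be told apart from the last step.

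**Figure D1:**
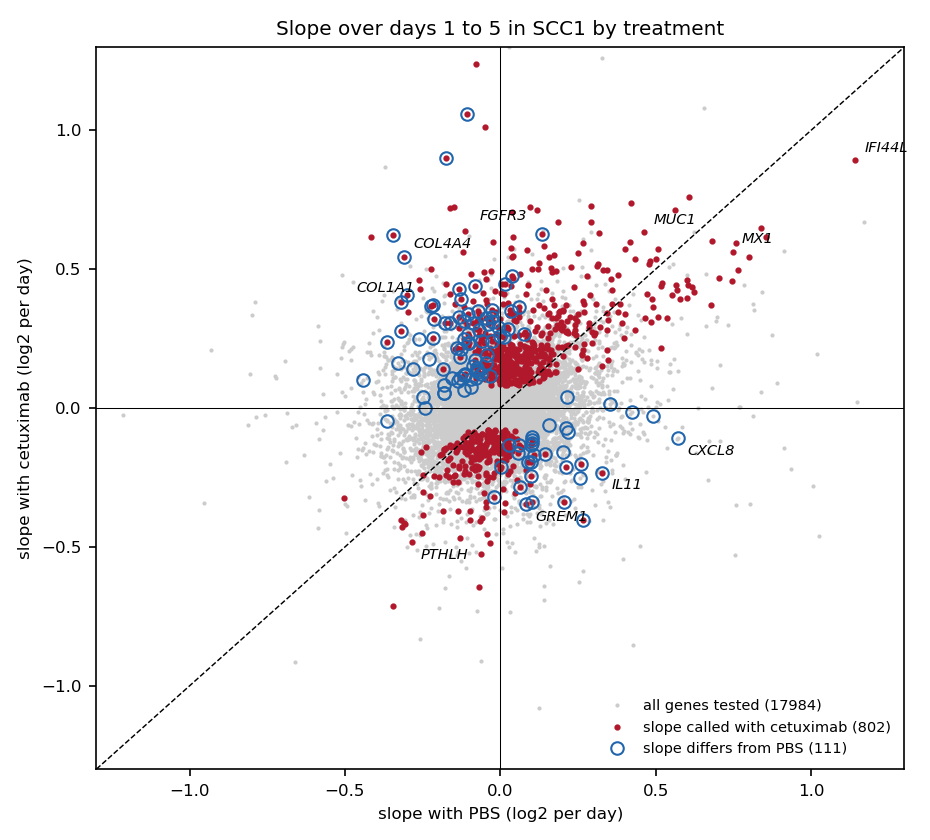
Slope over days 1 to 5 in log2 per day, with PBS on the x axis and cetuximab on the y axis, for each of 17984 genes (8 lie outside the axes). Red points mark the 802 genes whose CTX slope passed the test, blue circles the 111 whose slope differed between treatments, and the dashed line equal slopes: the interferon genes IFI44L and MX1 rose with both treatments, COL1A1 rose with cetuximab and fell with PBS, and CXCL8 rose with PBS.

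Genes of the interferon response held most places among the steepest rises. Of 40 interferon-stimulated genes, all of them tested, 31 rose with cetuximab and none fell, with a median slope of 0.36 per day against -0.00158 over all genes tested. They rose in untreated cells too, where 38 of the 40 passed the test with a median of 0.48 per day. No slope difference of a member passed edgeR's test, against 4 members at an unadjusted p under 0.05 and 1 by DESeq2. MX1, a GTPase that blocks virus replication, stood at 62.9, 98.9, 211, 242 and 283 CPM on days 1 to 5 with cetuximab. With PBS it stood at 46, 39.7, 60.9, 183 and 298 CPM. The treated cells were thus higher on days 1 to 4, and the untreated cells reached the treated level on day 5. Only the PBS library of day 5 shared the flow cell of the treated libraries. On days 1 to 4, flow cell and treatment cannot be told apart.

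The medians of the list differed in timing between treatments, which was not tested. Relative to day 1 of the same treatment, the median member was at log2 0.41, 1.11, 1.24 and 1.41 on days 2 to 5 with cetuximab, and at -0.03, 0.24, 1.31 and 1.79 with PBS. The largest step of the median was that from day 2 to 3 in treated cells and from day 3 to 4 in untreated cells. Both of these steps lay within 1 flow cell and, by lane code, within 1 lane. The median log2 ratio of CTX to PBS on the same day was 0.43, 0.80, 1.2, 0.39 and -0.08 on days 1 to 5, and 32 of the 40 members were higher with cetuximab in the day 3 comparison, against 26% of all genes. The treatments shared a flow cell on day 5 only.

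ISG15, a ubiquitin-like protein that is attached to other proteins in the antiviral response, had levels of 22.3, 34, 60.2, 67.7 and 99.8 CPM with cetuximab and 21.2, 24.1, 31.7, 62.9 and 68.7 CPM with PBS. Its slope was 0.53 ± 0.06 (SE) per day with cetuximab (adjusted p = 0.00065 by edgeR) and 0.48 with PBS. The levels of the 2 treatments were close on day 1 and the treated level was higher on each day after it. IFI44L, an interferon-induced gene on chromosome 1 from 79085587 to 79111830 (GRCh37), had the steepest slope among well-expressed genes, 0.89 ± 0.17 (adjusted p = 0.018 by the same test), with 13.1, 36.4, 105, 132 and 161 CPM with cetuximab. In PBS it stood at 7.49, 7.8, 9.62, 53.2 and 130 CPM, so the untreated rise began on day 4. IFI6, a mitochondrial survival protein, reached 207 CPM from 28.3 CPM with cetuximab and 91.8 from 23.7 CPM with PBS.

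MX2, CMPK2, IFITM1, OAS2, IFIT1 and IFI27 were the other interferon-induced genes among the 12 steepest rises, with slopes of 0.65, 0.61, 0.60, 0.59, 0.54 and 0.54 per day. IRF9, a DNA-binding factor of the interferon response, rose by 0.32 per day from 27.9 to 67 CPM, and LGALS3BP, a secreted glycoprotein, by 0.22 from 432 to 809 CPM. The calls of ISG15 and LGALS3BP were kept with any 1 of the 10 libraries left out. Those of the other members named here were lost without the CTX library of day 1 (adjusted p = 0.27 for IFI44L, 0.09 for IFI6, 0.25 for MX2, CMPK2 and OAS2, 0.29 for MX1, 0.14 for IFITM1, 0.31 for IFIT1, 0.11 for IFI27 and 0.13 for IRF9). Over the list, the 31 calls became 2 without the CTX library of day 1, 15 without that of day 2, 7 without that of day 5, 17 with robust prior degrees of freedom, 19 on log2 of the day and 0 with the lane term, and each member had a positive slope in the 10-library fit. IFITM1 has near-identical neighbours, and reads shared between such copies can be split between them.

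The promoters of ISG15, IFI44L, IFI6 and IFIT1 are shown because the genes moved together and hold matches to a motif of the interferon response element. Each is the 250 bases before the gene's start in the gene's own direction, from RefSeq (GRCh38.p14), with matches to GAAANNGAAA on either strand in capitals, where N is any base and overlapping matches run together. The windows are chr1:1013247-1013496 (+ strand) for ISG15, chr1:78620198-78620447 (+) for IFI44L, chr1:27672193-27672442 (-) for IFI6 and chr10:89392373-89392622 (+) for IFIT1.
ISG15: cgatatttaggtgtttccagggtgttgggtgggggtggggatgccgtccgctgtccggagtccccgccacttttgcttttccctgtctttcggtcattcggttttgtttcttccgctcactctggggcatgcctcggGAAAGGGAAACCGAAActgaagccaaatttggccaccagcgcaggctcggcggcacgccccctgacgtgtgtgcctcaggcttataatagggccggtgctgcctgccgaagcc
IFI44L: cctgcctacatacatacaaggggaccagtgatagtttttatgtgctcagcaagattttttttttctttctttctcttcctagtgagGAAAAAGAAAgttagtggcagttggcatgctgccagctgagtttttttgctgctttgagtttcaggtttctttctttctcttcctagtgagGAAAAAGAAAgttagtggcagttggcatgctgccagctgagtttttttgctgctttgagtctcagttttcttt
IFI6: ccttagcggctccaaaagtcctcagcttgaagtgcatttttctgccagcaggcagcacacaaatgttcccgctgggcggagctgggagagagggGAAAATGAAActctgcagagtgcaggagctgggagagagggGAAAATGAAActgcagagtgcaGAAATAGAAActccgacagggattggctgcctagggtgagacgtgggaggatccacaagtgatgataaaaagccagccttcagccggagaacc
IFIT1: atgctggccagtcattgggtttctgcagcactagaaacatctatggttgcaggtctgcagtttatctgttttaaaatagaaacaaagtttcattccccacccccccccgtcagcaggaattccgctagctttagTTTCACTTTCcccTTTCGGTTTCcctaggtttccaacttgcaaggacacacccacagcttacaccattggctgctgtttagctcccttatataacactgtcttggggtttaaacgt
ISG15 holds 2 overlapping matches that begin 113 and 107 bases before the start, IFI44L holds 2, at 164 and 73 bases, IFI6 holds 3, between 156 and 93 bases, and IFIT1 holds 2 on the opposite strand, at 116 and 103 bases. Of the 40 interferon genes, 32 had a promoter in the table and 21 of these (65.6%) held the motif in any of their windows, against 1014 of all 27305 genes in the table (3.71%) and 1061 of 35116 windows (3.02%). Among the rising genes outside the interferon list it was found in 24 of 355 with a promoter (6.76%), and among the falling genes in 6 of 188 (3.19%). Within the interferon list, 16 of the 24 rising members with a promoter held it (66.7%), near the share of the whole list. The list is made of known interferon genes, so its share is no test of the rise. A match is a description of letters and was not tested as a binding site.

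**Figure D2:**
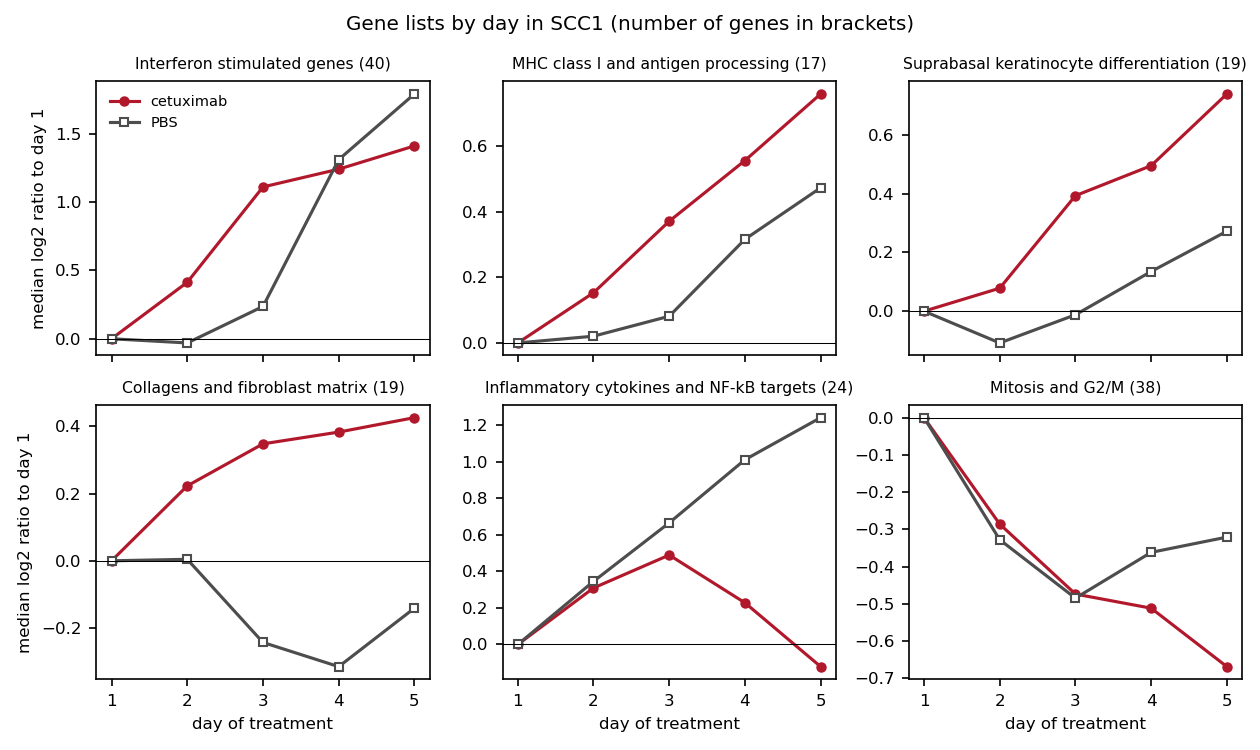
Median log2 ratio to day 1 of the same treatment (y axis) by day (x axis) over the members of 6 gene lists whose mean log2 CPM is 0 or more, cetuximab in red and PBS in grey. The interferon list rises to 1.41 with cetuximab and 1.79 with PBS on day 5, the cytokine list ends at -0.12 with cetuximab and 1.24 with PBS, and the mitosis list ends at -0.67 and -0.32.

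MHC class I genes, which present peptides to T cells, rose beside them. All 17 genes of the list were tested, and 11 rose with cetuximab and none fell, with a median slope of 0.18 per day against 0.11 with PBS, where 9 rose. HLA-C had 360, 405, 466, 530 and 681 CPM on days 1 to 5 with cetuximab and 326, 353, 354, 408 and 394 CPM with PBS. The treated levels increased at each step and lay above those of untreated cells on every day. HLA-B rose by 0.30 per day from 226 to 502 CPM, HLA-E by 0.20 from 219 to 387 CPM, and PSMB10, a subunit of the immunoproteasome, by 0.19 from 28.6 to 48.4 CPM. In untreated cells the slopes of HLA-C and PSMB10 were 0.08 and 0.07 (adjusted p = 0.11 and 0.17), and no slope difference in the list passed edgeR's test, against 4 at an unadjusted p under 0.05 and 2 by DESeq2. HLA-B, HLA-C and HLA-E are similar in sequence and polymorphic, so reads can be assigned to the wrong member. Without the CTX library of day 1 or of day 5, 4 members rose, and 0 with the lane term.

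Beside the interferon genes, the steepest rises were those of MUC1, FGFR3 and COL4A4. MUC1, a membrane mucin of the luminal surface of epithelia (chromosome 1 from 155158300 to 155162707, GRCh37), stood at 11.3, 12.9, 21.8, 36.5 and 60.2 CPM with cetuximab and at 3.28, 2.85, 3.85, 8.09 and 9.35 CPM with PBS. Its slope was 0.63 ± 0.06 (adjusted p = 0.00049) with cetuximab and 0.46 with PBS (adjusted p = 0.0099), and the groups did not overlap. FGFR3, a fibroblast growth factor receptor on chromosome 4 from 1795020 to 1810599, had 5.71, 13.3, 14.3, 23.1 and 39.7 CPM with cetuximab and 2.62, 2.61, 2.71, 2.83 and 3.91 CPM with PBS. Only the treated cells rose, by 0.63 ± 0.06 per day (adjusted p = 0.00047), and the slopes differed by 0.49 ± 0.09 (adjusted p = 0.041). The CTX slopes of MUC1 and FGFR3 were called with any 1 library left out, whereas the slope difference of FGFR3 had an adjusted p of 0.051 with day as a block and 0.3 without the CTX library of day 5. That difference was called in 2 of the 10 fits with 1 library left out.

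Genes of upper-layer keratinocytes rose in part. Of 50 differentiation genes, 29 had enough counts to be tested, and 10 of these rose with cetuximab, 3 with PBS and none fell, with a median slope of 0.15 against 0.02 with PBS. EMP1, a membrane protein of differentiating epithelium, stood at 65.3, 77.7, 102, 133 and 176 CPM with cetuximab and between 50.6 and 67.5 CPM with PBS. Its slope was 0.36 ± 0.03 (adjusted p = 0.00038) with cetuximab and 0.06 with PBS, a difference of 0.30 ± 0.05 (adjusted p = 0.015, and 0.02 with day as a block). The CTX slope was called with any 1 library left out, whereas the difference had an adjusted p of 0.073, 0.051 and 0.18 without the CTX library of day 1, 4 and 5 and of 0.078 on log2 of the day. OVOL1, a transcription factor of epidermal differentiation, rose by 0.56 per day from 2.32 to 9.39 CPM, and periplakin (PPL), a plakin of the cornified envelope, by 0.18 from 92.7 to 155 CPM. Involucrin (IVL), the precursor of that envelope, was at 0.145, 0.143, 0.294, 0.63 and 1.32 CPM with cetuximab and at 0.437, 0.383, 0.132, 0.262 and 0.296 CPM with PBS, so that its rise of 0.90 per day began from a level below that of untreated cells. ZNF750, SBSN, TGM1, SCEL, GRHL3 and KLK10 were the other 6 that rose. The slope difference of IVL had an adjusted p of 0.049, of 0.08 with day as a block and of 0.4 without the CTX library of day 5. The 10 calls fell to 2 without the CTX library of day 1 or of day 5, 4 without that of day 2, 5 without that of day 4 and 0 with the lane term.

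Some cell junction genes rose. Of 31 junction genes, 30 were tested, and 6 rose with cetuximab and 1 fell, against 3.09% and 1.37% of all genes tested. The median slope of the list was 0.08 with cetuximab and 0.04 with PBS. Plakophilin 1 (PKP1), a desmosome plaque protein, stood at 120, 146, 170, 225 and 296 CPM with cetuximab and at 38.4, 28.9, 24.6, 19.2 and 22.3 CPM with PBS. The treatments thus moved apart from day to day. The slope was 0.32 ± 0.04 with cetuximab (adjusted p = 0.0012, and 0.065 without the CTX library of day 5) and -0.21 with PBS, a difference of 0.54 ± 0.05 (adjusted p = 0.0023, and 0.053 without the same library). DSG3, a desmosomal cadherin, rose by 0.33 per day from 122 to 298 CPM, and PRSS8, a membrane serine protease of epithelia, by 0.17 from 86.3 to 142 CPM. The calls of DSG3 and PRSS8 were lost without the CTX library of day 1 (adjusted p = 0.27 and 0.22). CLDN7, ST14 and DSP were the other 3 that rose. EPCAM, an adhesion molecule of simple epithelia, fell by 0.13 per day from 192 to 133 CPM with cetuximab while its PBS level went from 232 to 292 CPM, and the difference of the slopes was -0.23 ± 0.03 (adjusted p = 0.017). The EPCAM slope was not called without the CTX library of day 1 or 5 (adjusted p = 0.094 and 0.2), nor was the difference (0.068 and 0.18, and 0.051 without that of day 4). Over the list, the 6 rises became 1 without the CTX library of day 1 or 2, 2 without that of day 4, 0 without that of day 5 and 10 without the PBS library of day 5.

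Of 20 basal and hemidesmosome genes, 19 were tested and only LAMA3, a chain of laminin 332, had a called slope, 0.22 per day from 538 to 1022 CPM. Basal keratin KRT17 stood at 1654, 2465, 3098, 3295 and 4611 CPM with cetuximab and between 391 and 842 CPM with PBS, and its slope of 0.34 ± 0.10 did not pass the test (adjusted p = 0.087). Leaving out the CTX library of day 1 gave an adjusted p of 0.37 for LAMA3, so that no member was called without it.

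**Figure D3:**
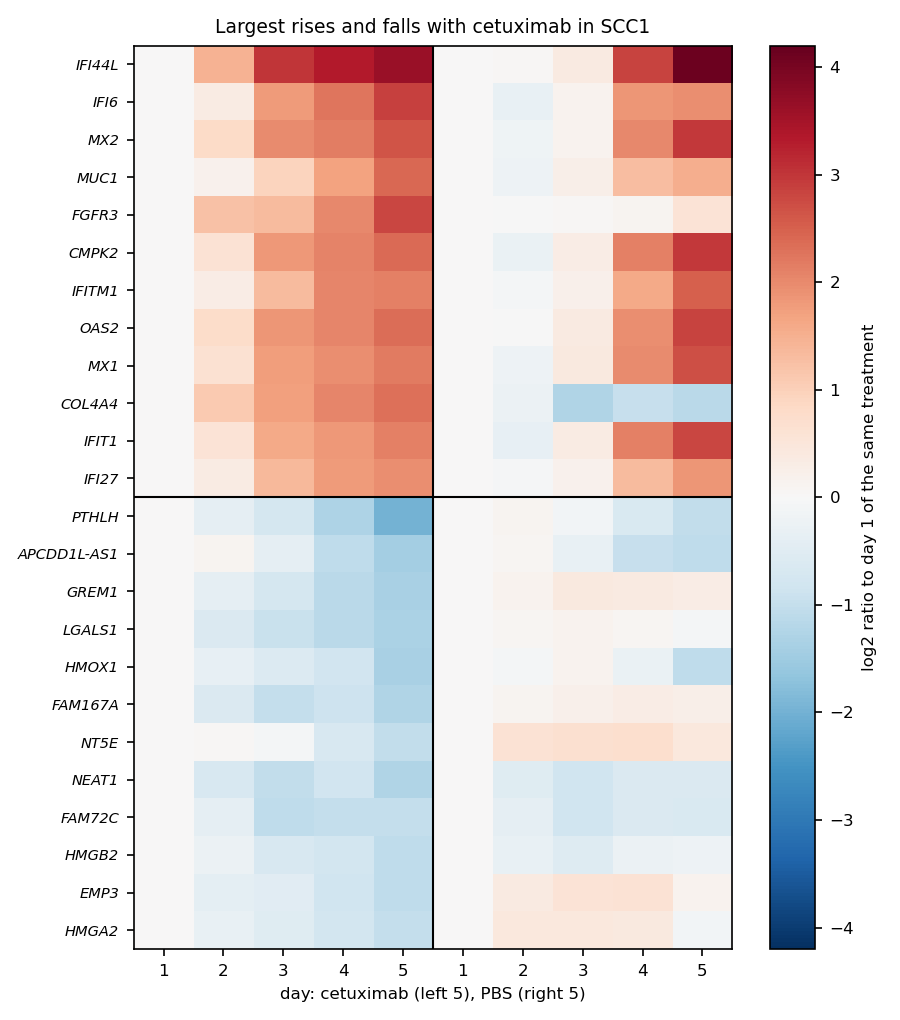
Log2 ratio of CPM to day 1 of the same treatment (colour) for the 12 steepest rises (top) and 12 steepest falls (bottom) among genes called with cetuximab whose mean log2 CPM is 3 or more, days 1 to 5 with cetuximab on the left and with PBS on the right. With cetuximab IFI44L reddens from day 2 and the other interferon genes deepen on day 3, with PBS they redden from day 4, COL4A4 reddens with cetuximab while it turns blue with PBS, and GREM1 turns blue with cetuximab but not with PBS.

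Some collagen genes rose with cetuximab, and no rise with PBS passed edgeR's test. Of 26 collagen and matrix genes, 22 were tested, and 5 (COL1A1, COL1A2, COL5A1, COL5A2 and COL4A5) rose with cetuximab and none fell, with a median slope of 0.10, whereas with PBS none rose and 3 fell, with a median of -0.05. At an unadjusted p under 0.05, 12 rose and 3 fell with cetuximab, and 2 rose and 6 fell with PBS. DESeq2 called 8 rises and 1 fall with cetuximab, and 2 rises and 3 falls with PBS. By edgeR, the slope was higher with cetuximab for 4 members (COL1A1, COL1A2, COL5A1 and COL7A1) and lower for 1 (COL6A2). COL1A1, a chain of type I collagen on chromosome 17 from 48261462 to 48278993, stood at 32.4, 43.8, 58.5, 65.1 and 95.1 CPM with cetuximab and at 22.5, 22.3, 17.1, 15.6 and 12.4 CPM with PBS. The treated level rose at each step and the untreated level fell at each step. The slopes were 0.37 ± 0.03 (adjusted p = 0.00026) and -0.22 (adjusted p = 0.0054), and their difference of 0.59 ± 0.04 (adjusted p = 0.0005) was called with any 1 library left out and with day as a block (adjusted p = 0.011).

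COL4A4, a chain of basement membrane collagen IV, had 4.38, 9.46, 14.5, 18.3 and 22 CPM with cetuximab and 2.24, 1.89, 0.925, 1.14 and 1.02 CPM with PBS, the slope difference with the largest value among called genes of this level (0.85 ± 0.12, adjusted p = 0.014). COL5A1 stood at 155, 170, 197, 227 and 305 CPM with cetuximab and at 81.1, 51.9, 31.9, 29.1 and 30.7 CPM with PBS, a difference of 0.60 ± 0.08 (adjusted p = 0.0083). In COL5A1 the untreated fall took place by day 3, and the treated level rose most from day 4 to 5. COL1A2 rose from 18.5 to 59.5 CPM with cetuximab (difference 0.52 ± 0.10, adjusted p = 0.042), and COL5A2 from 12.7 to 21.2 CPM. With day as a block the adjusted p was 0.05 for COL4A4, 0.011 for COL5A1 and 0.053 for COL1A2, and without the CTX library of day 5 it was 0.061, 0.13 and 0.25. Type I collagen genes are also fibroblast markers: the summed level of 7 such markers was 53.2 to 156 CPM with cetuximab and 22.2 to 34.9 CPM with PBS, nearly all of it from COL1A1 and COL1A2, while COL3A1, PDGFRA, PDGFRB, DCN and LUM reached at most 0.131, 0.193, 0.413, 1.23 and 0.942 CPM with cetuximab. In place of 5, 1 member of the list rose without the CTX library of day 1 or of day 5, 3 without that of day 2 or 3, 2 without that of day 4, and 9 and 10 without the PBS library of day 1 and 5.

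IGF2, a growth factor that activates the IGF1 receptor, and NUPR1, a small stress-response protein of chromatin, were the other 2 of the 4 largest slope differences above PBS. IGF2 had 182, 191, 232, 320 and 570 CPM with cetuximab and 67.5, 29.2, 23.7, 21.9 and 28.6 CPM with PBS. Most of the treated rise thus came from day 3 on. The slopes differed by 0.71 ± 0.13 (adjusted p = 0.041, 0.011 with day as a block, and 0.36 without the CTX library of day 5). NUPR1 stood at 17.6, 32, 35, 34.4 and 46.2 CPM and at 5.57, 3.73, 2.25, 2.31 and 2.46 CPM, a difference of 0.60 ± 0.11 (adjusted p = 0.037, 0.08 with day as a block, and 0.26 without the same library).

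**Figure D4:**
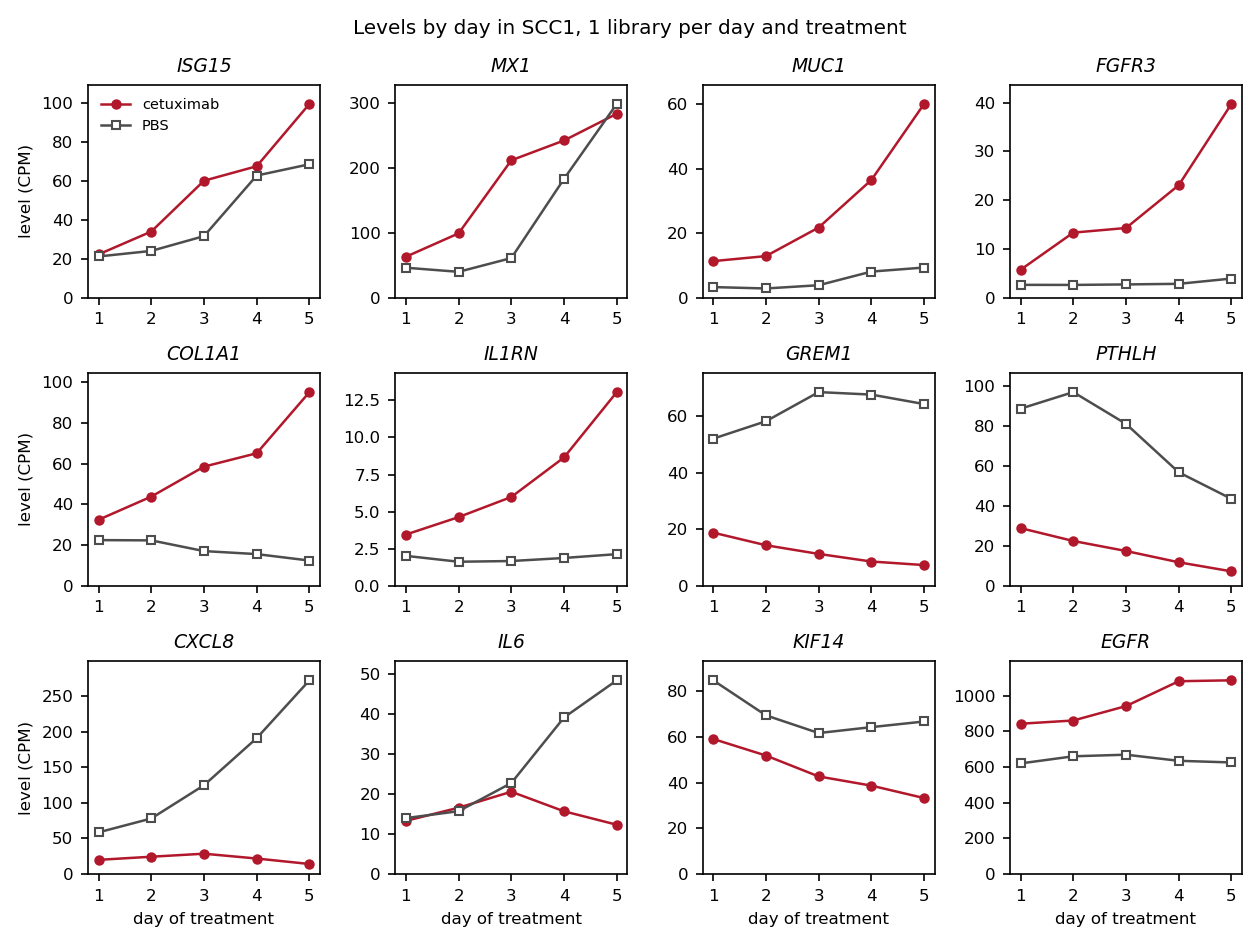
Level in CPM (y axes start at 0) by day for 12 genes in SCC1, with 1 library per point, cetuximab as red circles and PBS as open squares. MX1 reaches 283 CPM with cetuximab and 298 CPM with PBS on day 5, COL1A1 goes from 32.4 to 95.1 CPM with cetuximab and from 22.5 to 12.4 CPM with PBS, and CXCL8 goes from 58.6 to 272 CPM with PBS while the treated libraries lie between 14.2 and 28.6 CPM.

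Genes of mitosis made up the most uniform fall. All 38 genes of the list were tested and had a negative slope with cetuximab, 21 fell and none rose, with a median slope of -0.16 against -0.07 with PBS, where 4 fell. KIF14, a kinesin of cytokinesis, stood at 59, 51.8, 42.7, 38.6 and 33.2 CPM with cetuximab and at 84.7, 69.3, 61.6, 64.2 and 66.7 CPM with PBS. Both treatments declined to day 3, and only the treated cells went on declining after it. The list as a whole did the same: its median relative to day 1 was -0.29, -0.47, -0.51 and -0.67 on days 2 to 5 with cetuximab and -0.33, -0.49, -0.36 and -0.32 with PBS. The treated step from day 3 to 4 crossed lane codes, and the untreated step from day 4 to 5 crossed flow cells. In these steps, lane or flow cell and day cannot be told apart. With cetuximab the slopes of BUB1, a kinase of the spindle checkpoint, CENPA, the histone variant of centromeres, and CDC20, an activator of the anaphase-promoting complex, were -0.16, -0.22 and -0.15 per day. CENPA also fell with PBS, with a slope of -0.17. No slope difference of a mitosis gene passed edgeR's test, against 12 members with a lower slope under cetuximab at an unadjusted p under 0.05 and 1 by DESeq2. The 21 calls fell to 0 without the CTX library of day 1, 9 without day 2, 5 without day 4, 1 without day 5, 13 without the PBS library of day 4 and 0 with the lane term, and were 34 without the PBS library of day 1.

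Of 39 DNA replication genes, all tested, 2 fell with cetuximab and none rose, with a median slope of -0.08 against 0.02 with PBS, where no member passed (7 rose at an unadjusted p under 0.05, and none by DESeq2). GINS2, a subunit of the replicative helicase, fell from 29.1 to 19.1 CPM. Of 24 p53 targets and inhibitors of cyclin-dependent kinases, all tested, 3 rose, against 3.09% of all genes tested. CDKN2B (p15) rose from 42 to 69.9 CPM, CDKN1C (p57) from 0.798 to 4.32 CPM and PHLDA3, an inhibitor of AKT, from 38.3 to 63.5 CPM. Their slopes were 0.16, 0.58 and 0.15 per day. The calls of these 4 genes were lost without the CTX library of day 1 (adjusted p = 0.58 for GINS2, 0.31 for CDKN2B, 0.081 for CDKN1C and 0.28 for PHLDA3). CDKN1C was at 1.73 CPM on day 4 with cetuximab, and without the CTX library of day 5 its adjusted p by edgeR was 0.33.

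The steepest fall among well-expressed genes was that of PTHLH, the parathyroid hormone-related peptide made by squamous cells (chromosome 12 from 28111017 to 28125666). It stood at 28.8, 22.4, 17.4, 11.8 and 7.24 CPM with cetuximab and at 88.5, 96.8, 80.9, 56.7 and 43.4 CPM with PBS. It fell in both, by 0.48 ± 0.05 per day with cetuximab (adjusted p = 0.00066) and by 0.29 with PBS (adjusted p = 0.013), and each treated level lay below each untreated one. GREM1, a secreted antagonist of bone morphogenetic proteins, had 18.8, 14.4, 11.3, 8.61 and 7.35 CPM with cetuximab and 52, 58.2, 68.5, 67.6 and 64.2 CPM with PBS. Here only the treated cells declined, and the difference of slopes was -0.43 ± 0.04 (adjusted p = 0.0023, and 0.016 with day as a block). LGALS1, the galectin-1 gene, went from 110 to 43.8 CPM with cetuximab and from 156 to 147 CPM with PBS, a difference of -0.30 ± 0.05 (adjusted p = 0.026, 0.077 with day as a block, and 0.14 and 0.097 without the CTX library of day 1 and 5). The CTX slopes of PTHLH, GREM1 and LGALS1 were called with any 1 library left out.

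The other 9 of the 12 steepest falls had slopes of -0.40 to -0.25 per day. HMGA2 and HMGB2, architectural chromatin proteins, went from 77.8 to 38.5 and from 108 to 51.9 CPM, and NT5E (CD73), which makes adenosine, from 44.7 to 21.9 CPM. HMOX1, the haem-degrading enzyme, went from 98 to 38 CPM with cetuximab and from 88.7 to 42.2 CPM with PBS, where its slope of -0.23 did not pass the test (adjusted p = 0.1). FAM167A, EMP3, the long noncoding RNA NEAT1, FAM72C and APCDD1L-AS1 were the remaining 5, with falls of 0.28, 0.26, 0.27, 0.27 and 0.40 per day. FAM72C is 1 of several near-identical copies, and APCDD1L-AS1 is antisense to APCDD1L and the strand setting of the quantification is not given in the sources used here, so the counts of both are uncertain. Without the CTX library of day 5 the adjusted p by edgeR was 0.15 for APCDD1L-AS1, 0.4 for NT5E and 0.28 for HMOX1. Without that of day 1 it was 0.29 for HMGA2, 0.13 for HMGB2, 0.1 for NT5E, 0.22 for HMOX1, 0.16 for FAM167A, 0.33 for EMP3, 0.53 for NEAT1 and 0.47 for FAM72C. IGFBP6, a binding protein of IGF2, had a lower slope than with PBS (-0.36 ± 0.06, adjusted p = 0.026, 0.077 with day as a block and 0.17 without the CTX library of day 1), with levels between 10.3 and 16.4 CPM with cetuximab and between 18 and 32.5 CPM with PBS.

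By straight-line slope, inflammatory cytokines rose in untreated cells and in most cases were not called as rising in treated ones. The median member rose with both treatments to day 3 and declined after it with cetuximab only. Relative to day 1 it was at log2 0.309, 0.489, 0.228 and -0.121 on days 2 to 5 with cetuximab. With PBS it was at 0.345, 0.665, 1.01 and 1.24. For all genes of the list, the treated step from day 3 to 4 crossed lane codes and the untreated step from day 4 to 5 crossed flow cells. Lane or flow cell and day cannot be told apart in these steps. Of 30 genes, 26 were tested, and 14 rose with PBS and none fell, with a median slope of 0.27, whereas with cetuximab 3 rose and 1 fell, with a median of -0.02. The slope was lower with cetuximab for 4 members (CXCL8, IL6, IL11 and TNFAIP3) and higher for 1 (IL1RN). CXCL8, the neutrophil attractant interleukin 8, stood at 20, 24.4, 28.6, 21.9 and 14.2 CPM with cetuximab and at 58.6, 78.1, 125, 191 and 272 CPM with PBS. The untreated level rose at every step, while the treated level rose to day 3 and declined after it, so that a straight line describes it poorly. The slopes were -0.11 (adjusted p = 0.46) and 0.57 (adjusted p = 0.0018), and they differed by -0.68 ± 0.10 (adjusted p = 0.011, 0.027 with day as a block and 0.067 without the CTX library of day 5).

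IL6, a cytokine that signals through STAT3, had 13.3, 16.6, 20.5, 15.7 and 12.3 CPM with cetuximab and 14, 15.7, 22.7, 39.1 and 48.3 CPM with PBS. The treatments overlapped on days 1 to 3 and parted on days 4 and 5, and the slope difference of -0.52 ± 0.10 had an adjusted p of 0.041, of 0.077 with day as a block and of 0.3 without the CTX library of day 5. IL11, of the same cytokine family, fell from 2.85 to 1.55 CPM with cetuximab and rose from 9.51 to 22.4 CPM with PBS (difference -0.56 ± 0.06, adjusted p = 0.0025, and 0.053 without the CTX library of day 5). IL1RN, the natural antagonist of the interleukin 1 receptor, stood at 3.46, 4.63, 5.99, 8.66 and 13.1 CPM with cetuximab and between 1.63 and 2.14 CPM with PBS. Its slope of 0.48 ± 0.05 (adjusted p = 0.00049) was called with any 1 library left out, and the slope difference of 0.44 ± 0.07 had an adjusted p of 0.029, of 0.051 with day as a block and of 0.27 without the CTX library of day 5. PTGS2 (COX-2), which makes prostaglandins, rose by 0.35 per day from 64.8 to 156 CPM with cetuximab and lay below the PBS level of 202 to 287 CPM throughout. BIRC3, an inhibitor of cell death, rose by 0.19 per day from 28.3 to 46.1 CPM with cetuximab. With PBS it also rose, by 0.26 per day from 26.4 to 56 CPM. Without the CTX library of day 1, 1 of the 3 rises was called and IL11 was not (adjusted p = 0.1).

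**Figure D5:**
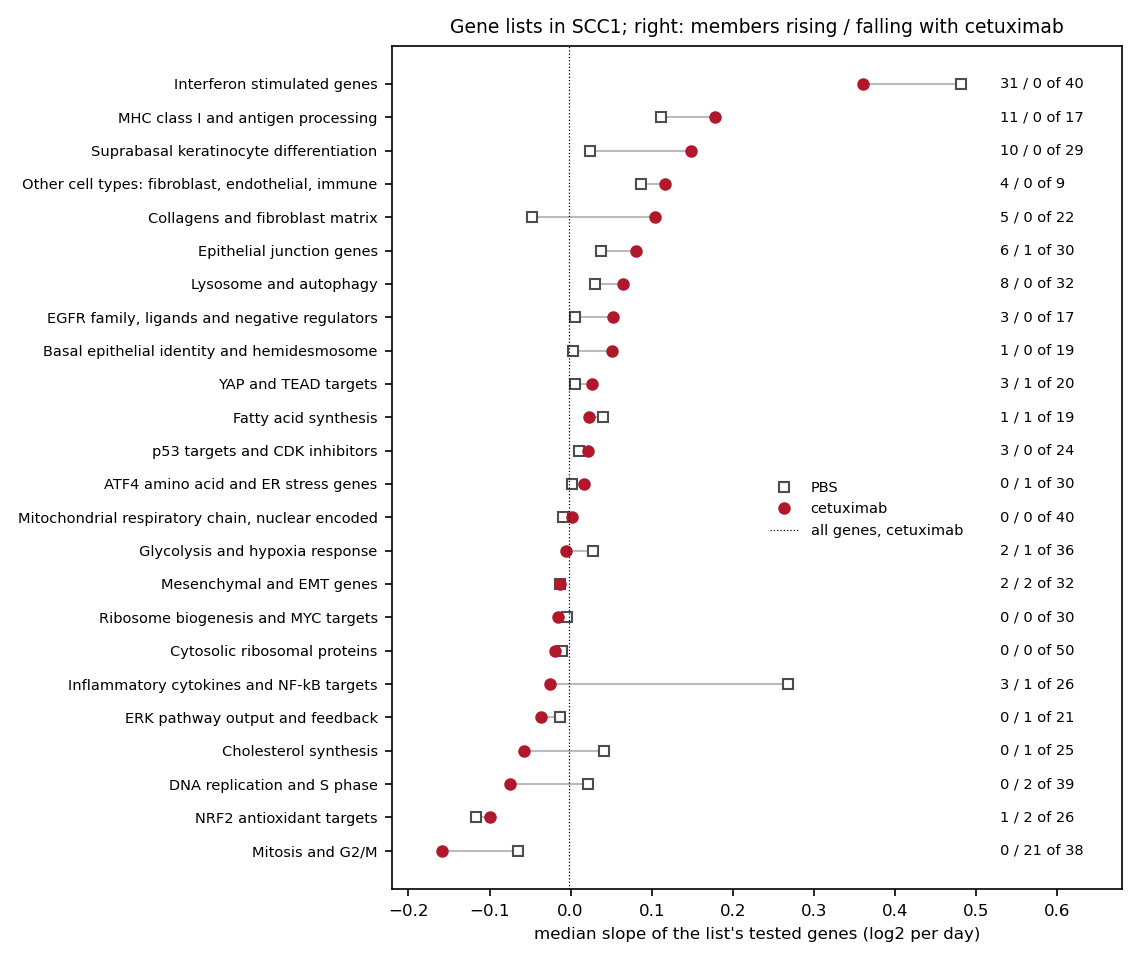
Median slope in log2 per day of the tested genes of 24 lists (x axis), cetuximab as red circles and PBS as open squares, with the counts of members that rose and fell with cetuximab at the right and a dotted line at the median of all genes. The interferon list is farthest to the right with 31 of 40 rising, the mitosis list farthest to the left with 21 of 38 falling, and the cytokine list has the widest gap between treatments, at -0.02 and 0.27.

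In the EGFR family, the drug's target itself rose. EGFR (chromosome 7 from 55086710 to 55279321) stood at 842, 860, 941, 1080 and 1085 CPM with cetuximab and between 620 and 668 CPM with PBS. All 5 treated levels were above all untreated ones. The slope by edgeR was 0.11 ± 0.02 with cetuximab (adjusted p = 0.02) and -0.00 with PBS. Their difference of 0.11 ± 0.03 did not pass the test (adjusted p = 0.16). The cetuximab slope was not called without the CTX library of day 1, 2, 4 or 5, nor with the lane term. Its adjusted p was 0.15 without that of day 1 or 5. Of 18 receptors, ligands and negative regulators, 17 were tested and 3 rose and none fell with cetuximab, with a median slope of 0.05 against 0.01 with PBS. ERRFI1, a feedback inhibitor that binds the EGFR kinase domain, rose by 0.12 per day from 153 to 215 CPM and stayed below its PBS level of 235 to 285 CPM. ERBB4 rose by 0.55 per day but was at most 0.983 CPM. Without the CTX library of day 1 or 5 none of the 3 was called. ERBB2 stood at 140 to 190 CPM with cetuximab and 110 to 116 CPM with PBS, with a slope of 0.09 ± 0.02 (adjusted p = 0.061).

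The transcriptional output of ERK was lower with cetuximab from day 1 on, and its genes had no common slope. Over 20 of them, the median log2 ratio of CTX to PBS was -1.38, -1.84, -1.87, -1.89 and -1.48 on days 1 to 5. Of 24 output and feedback genes, 21 were tested, 17 were lower with cetuximab on day 3 and none was higher, against 24.7% lower over all genes, with a median difference of -1.72 log2. By slope, only ETV4, an ETS transcription factor, passed edgeR's test, against 3 rises and 3 falls at an unadjusted p under 0.05. DESeq2 called 3 rises and 2 falls. ETV4 fell by 0.15 per day from 51.9 to 35.5 CPM (adjusted p = 0.0084, and 0.16 without the CTX library of day 1). The median slope of the list was -0.04 with cetuximab and -0.01 with PBS. CCND1 (cyclin D1) stood at 232, 320, 340, 368 and 421 CPM with cetuximab and EPHA2, an ephrin receptor, at 66.3, 91.5, 128, 128 and 140 CPM. Their slopes of 0.19 and 0.26 did not pass the test (adjusted p = 0.066 and 0.069).

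Lysosomal genes rose in part. Of 32 lysosome and autophagy genes, all tested, 8 rose with cetuximab and none fell, and 1 rose with PBS. Over all genes tested, 3.09% rose and 1.37% fell with cetuximab. The list's median slope was 0.07 with cetuximab and 0.03 with PBS. GAA, the lysosomal glycogen-degrading glucosidase (chromosome 17 from 78075332 to 78093680), stood at 62.6, 77.8, 96.9, 115 and 158 CPM with cetuximab and at 38, 36.4, 36.3, 36 and 32.6 CPM with PBS. The treated level rose at each step and the untreated one did not. Its slope of 0.32 ± 0.02 (adjusted p = 9.7e-05) and the slope difference of 0.37 ± 0.03 (adjusted p = 0.00067) were called with any 1 library left out, and the difference also with day as a block (adjusted p = 0.011). Cathepsin D (CTSD), beta-galactosidase (GLB1) and cathepsin S (CTSS) rose from 484 to 897, 96.5 to 134 and 7.62 to 13.1 CPM, and CTSH, CTSA, HEXA and PSAP were the other 4. CTSS also rose with PBS, from 7.57 to 19.35 CPM, with a slope of 0.34 against 0.21 with cetuximab. Without the CTX library of day 1 or of day 5, GAA alone was called (1 of 32 in each).

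Metabolic and housekeeping lists moved less. Their counts with cetuximab stand beside shares of 3.09% rising and 1.37% falling over all genes tested. None of 50 cytosolic ribosomal protein genes, 30 ribosome biogenesis and MYC target genes or 40 nuclear genes of the respiratory chain had a called slope with cetuximab by edgeR, against 6, 5 and 2 at an unadjusted p under 0.05 and 0, 2 and 0 by DESeq2, and their medians were -0.02, -0.02 and 0.00. Of 36 glycolysis and hypoxia genes, all tested, SLC2A1 (the glucose transporter GLUT1) and PFKL rose and BNIP3, a mitophagy receptor, fell, the latter from 80 to 56 CPM against a PBS rise from 91.3 to 121 CPM (slope difference -0.23 ± 0.03, adjusted p = 0.0059). The BNIP3 difference had an adjusted p of 0.056 and 0.053 without the CTX library of day 1 and 5, and was -0.14 (adjusted p = 0.26) with PBS of day 0 added. Of 25 cholesterol synthesis genes, 1 fell (ACAT2), of 19 tested of 20 fatty acid synthesis genes 1 rose (SREBF1) and 1 fell (FADS1), and of 30 ATF4 targets 1 fell (STC2). Among 26 tested of 27 NRF2 targets, AKR1B10 rose and HMOX1 and GCLM, a subunit of the enzyme that makes glutathione's precursor, fell, and the list's median of -0.10 was near that with PBS, -0.12. Of 20 YAP and TEAD targets, ANKRD1, GADD45A and CRIM1 rose, by 0.47, 0.21 and 0.14 per day, and NT5E fell. Without the CTX library of day 1, of these only GCLM (adjusted p = 0.012) and STC2 (adjusted p = 0.015) were called, and without that of day 5 neither was (adjusted p = 0.35 and 0.34).

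Mesenchymal genes showed no common direction. Of 34 genes, 32 were tested, and 2 rose and 2 fell with cetuximab, against 3.09% and 1.37% of all genes tested. The list's median slope was -0.01, as with PBS. SPARC, a collagen-binding matrix protein, rose by 0.21 per day from 453 to 822 CPM and POSTN (periostin) by 0.56 from 1.16 to 5.72 CPM, whereas the receptor kinase AXL fell by 0.14 from 136 to 95.7 CPM and SERPINE2, an inhibitor of extracellular proteases, by 0.37 from 1.91 to 0.828 CPM. All 4 calls were lost without the CTX library of day 1 (adjusted p = 0.33, 0.12, 0.19 and 0.11). VIM (vimentin), a filament protein of mesenchymal cells, stood at 23.5, 13.6, 13.4, 8.87 and 9.34 CPM with cetuximab and at 118, 224, 260, 254 and 154 CPM with PBS. It was thus lower with cetuximab on every day, while its slope of -0.34 ± 0.11 did not pass the test (adjusted p = 0.11). TFAP2A, a transcription factor that regulates receptor tyrosine kinases, stood at 108, 114, 113, 111 and 109 CPM with cetuximab and between 99.2 and 109 CPM with PBS, with a slope of -0.00 ± 0.02 (adjusted p = 0.99). Of 17 markers of fibroblasts, endothelium and leukocytes, 9 had enough counts to be tested and 4 rose: COL1A1, COL1A2, KDR from 8.8 to 18.6 CPM and CD14 from 2.15 to 7.68 CPM. KDR and CD14 also rose with PBS, and their part in the other results was not tested.

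SCC25, another HNSCC line given the same dose over the same days, was compared by slope. With cetuximab, 177 of 19101 genes tested in SCC25 rose (0.927%) and 32 fell (0.168%). Of the 555 genes rising in treated SCC1, 533 were tested in SCC25, where 384 (72%) had a positive slope, 63 rose and none fell. Of the 247 falling genes, 241 were tested, 195 (80.9%) had a negative slope, 5 fell and 2 rose. Over all genes tested in both lines, the slopes had the same sign for 53.7%. The median SCC25 slope of the 533 genes was 0.05 with cetuximab and 0.09 with PBS. The CTX libraries of SCC25 from days 1 and 2 were on another flow cell than those of days 3 to 5, so flow cell and day cannot be told apart in that line.

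The slope with cetuximab differed between SCC1 and SCC25 for 73 of 20564 genes (0.355%), with a higher slope in SCC1 for 53 (0.258%) and a lower one for 20 (0.0973%). FGFR3 rose by 0.63 per day in SCC1 and had a slope of -0.02 in SCC25 (adjusted p of the difference 0.0034), and IL1RN had 0.48 and 0.01 (adjusted p = 0.00057). PTHLH fell by 0.48 in SCC1 and had a slope of 0.01 in SCC25 (adjusted p = 0.0043). HMOX1 fell in SCC1 and rose by 0.52 per day in treated SCC25 (adjusted p of the difference 0.0027), and it also rose in untreated SCC25, by 0.62 per day (adjusted p = 0.0054). Of the 12 interferon genes described above, 6 also rose in treated SCC25 (IFI44L, CMPK2, OAS2, IFIT1, ISG15 and IRF9) with slopes of 0.84, 0.70, 0.45, 0.80, 0.44 and 0.51 per day. All 6 rose in untreated SCC25 too, by 0.73, 0.63, 0.31, 0.62, 0.49 and 0.56 per day. MX1 had a slope of -0.19 in treated SCC25 (adjusted p = 0.44), at a low level of 0.523 to 0.889 CPM. The difference between lines passed the test for none of the 12, with adjusted p-values from 0.19 for MX1 to 0.96 for IFI44L.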

How the data were processed

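The values are estimated counts per gene that the authors made with Salmon (version 0.8.2 per the submitters' notes) and tximport and deposited as a table of 56470 gene symbols. The notes name hg19, and the annotation is not given in the sources used here. Every column of the table was matched to a labelled sample (0 unmatched). Counts were rounded to whole numbers, edgeR's expression filter dropped weakly counted genes, and TMM factors were applied. One edgeR quasi-likelihood model (edgeR 4.0.16, limma 3.58.1, R 4.3.3) with a level and a slope on day for each treatment was fitted to the 5 CTX and 5 PBS libraries, with 6 residual degrees of freedom. The SCC25 libraries were fitted in the same way, and both lines together for the difference between lines. Levels are CPM on TMM-scaled library sizes and are compared within a gene only. The threshold was an adjusted p of 0.05.

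Genes are named by a rule: the 12 largest rises and 12 largest falls among called genes whose mean log2 CPM is 3 or more, the 4 largest slope differences in each direction at that level, up to 4 members of each of 24 gene lists with the smallest p for the CTX slope, and VIM, TFAP2A, EGFR and AXL. Other called list members are named without a test of their own. The members and lists were chosen with earlier results of these data known. Gene positions are from a GRCh37 annotation and promoters from RefSeq (GRCh38.p14). The numbers of the days paired the treatments: the deviations of same-day CTX and PBS libraries from their groups correlated at 0.4, 0.38, 0.14, 0.2 and 0.12 over 10121 genes, so the day was also used as a block. Alternatives were DESeq2 1.42.0, other scaling, filters, day scales and libraries left out. The counts of list members under the alternatives were added after seeing the data. The model was tested on simulated counts. Some genes are not reported here.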

Additional observations from a re-analysis of the deposited data

Results flagged for a closer look

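The slope with cetuximab differed between SCC1 and SCC25 for 73 genes, by edgeR's quasi-likelihood test of the difference with Benjamini-Hochberg adjustment. Among the genes named, the SCC1 slope was higher than that of SCC25 by 0.55 per day for MUC1, 0.64 for FGFR3, 0.65 for IGF2, 0.32 for PKP1, 0.46 for IL1RN, 0.29 for EMP1 and 0.71 for CDKN1C. The difference, SCC1 minus SCC25, was -0.50 for PTHLH, -0.34 for LGALS1, -0.84 for HMOX1, -0.38 for NT5E, -0.23 for BNIP3 and -0.36 for GCLM.

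In 3 of 188 groups of 5 libraries examined (1.6%), 1 library lay far from the other 4 by Dixon's ratio of the gap to the range, which chance does in about 1 of 20 groups. All 3 were PBS libraries and none was a CTX library. Most of the genes were named for a called CTX slope in these same libraries, which makes a far CTX library less likely. These counts are therefore no test of the CTX libraries. FGFR3 was at 3.91 CPM with PBS on day 5, with a ratio of 0.796. IGF2 was at 67.5 CPM with PBS on day 1, with a ratio of 0.743. ERBB4 was at 0.0239 CPM with PBS on day 2, with a ratio of 0.892.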

How the results depend on the processing

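The 802 genes with a slope in treated SCC1 were 282 at a slope of at least 0.25 per day, 1561 when the 5 CTX libraries were fitted alone and 2 with lane code as a term, and between 69 and 1414 with 1 library left out. The 440 genes with a slope in PBS were 877 by DESeq2, 183 at a slope of at least 0.25, 98 with the 5 PBS libraries alone, 1647 with PBS of day 0 added, and between 169 and 448 with 1 library left out. The 111 slope differences were 385 by DESeq2, 250 with no filter on low counts, 239 with PBS of day 0 added, and between 4 and 376 with 1 library left out. The 209 genes with a slope in treated SCC25 were 451 by DESeq2 and the 73 line differences 222. The causes were not tested. The 9105 genes that differed on day 3 stayed between 8122 and 9601 under the alternatives run.

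With day as a block, 85 slope differences passed and 9047 genes differed on day 3. Among the named genes with a called difference, the block ended the call of FGFR3, COL4A4, LGALS1, FAM167A, NUPR1, COL1A2, SPARC, IL6, IL1RN, IGFBP6 and IVL, and changed no other. Of these 22 called differences, 3 kept their call in all 10 fits with 1 library left out. Without the CTX library of day 1, 7 were kept, and without that of day 5, 3 were.

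Of 94 named genes, 3 had a CTX slope that changed sign under an alternative, none of them called. CXCL8 had 0.0608 without the CTX library of day 5 (lowest -0.271, without day 1) and 0.0902 with the lane term. IL6 had 0.0255 on log2 of the day, 0.103 without the CTX library of day 5 (lowest -0.169, without day 1) and 0.186 with the lane term. TFAP2A had 0.0038 with no filter, 0.00799 on log2 of the day, 0.00596 and 0.0079 without the CTX library of day 2 and 5 (lowest -0.0227, without day 1), and 0.0224 with the lane term. All 85 called slopes kept their sign with any 1 library left out, and 13 kept their call in all 10 such fits, 18 when the CTX library of day 1 was left out and 21 when that of day 5 was. The 85 were called in these same libraries, so the kept signs follow in large part from the selection. With 1 library per day, a change between days and the spread between libraries of a day cannot be told apart.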
